A study of Mus musculus with 55 samples.

Results

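The data described here are 6 mitotic libraries of CTCF-AID mouse embryonic stem (ES) cells, 3 in which CTCF had been depleted with auxin (+IAA) and 3 in which it had not (−IAA). They are 6 of the 36 CTCF-AID libraries and of the 55 libraries of the series, and were chosen by their labels as the mitotic columns of both arms, paired by replicate number. CTCF-AID is the ES cell line #EN52.9.1 on an E14Tg2a (129/Ola) background, a single line in which CTCF carries an auxin-inducible degron, so that a difference between lines cannot be seen. Both arms carry the degron and both were arrested in the same way, with the CDK1 inhibitor RO-3306 at 10 µM for 4 h, then nocodazole at 50 ng/ml for 4 h, and collected by shake-off. The +IAA arm received IAA at 0.5 mM for the last 2 h of the nocodazole block and the −IAA arm received none, and no untagged line with IAA was analysed here. Thus an action of IAA other than on CTCF and the loss of CTCF cannot be told apart. For the comparison with other stages, each arm also had 3 libraries of asynchronous cells and 2 at each of 20, 40, 50, 60, 90 and 120 min after release from nocodazole, with IAA kept on during the release. Asynchronous +IAA cells received IAA for 4 h, and asynchronous cells of both arms received neither RO-3306 nor nocodazole. From mitosis to 120 min the stage and the time in IAA increase together and cannot be told apart. The study's methods call the replicates of each condition independent.

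CTCF is a zinc finger protein that binds a long, conserved DNA sequence through its central fingers. It stops the loop-extruding cohesin ring and so sets the borders of chromatin loops and domains, and it also binds at many promoters. In mitosis transcription falls to low levels and most factors leave the chromosomes. Mouse ES cells keep CTCF at part of its sites, which is called mitotic bookmarking. The comparison asks whether pre-mRNA levels differ at the end of the arrest, before cells divide, when CTCF has been removed. Auxin degrades the tagged protein and not its RNA, so the level of Ctcf pre-mRNA does not check the depletion.

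The values are TPM, an abundance scaled for transcript length and library size, of the pre-mRNA isoform of 10237 genes. Pre-mRNA still holds introns and is short-lived, so its level follows recent transcription. The sums of the listed TPM overlapped between arms, at 18606–23302 without and 17777–22522 with IAA, and 40 to 66 genes were listed at 0 in a library. Each library's values are multiples of a step that differs between libraries, and the factor behind it is not explained in the sources used here. The number of reads is unknown, since TPM keep no counts. Spearman's rho over genes between any pair of the 6 libraries was 0.942 to 0.991, and that between both arms of 1 replicate 0.981 to 0.991. Of 10 ES cell markers 9 were listed, with summed levels of 53.2–88.8 TPM without and 50.6–83.6 TPM with IAA. Of 17 markers of primitive endoderm, trophoblast, mesoderm, ectoderm and fibroblasts 6 were listed, and no endoderm marker was. Their largest sum was that of the mesoderm gene T, which was at 1.24 TPM without and 1.35 TPM with IAA in replicate 2 and at most 0.052 TPM in the other 4 libraries.

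At the level of single genes, no difference between +IAA and −IAA mitotic cells passed the test. With limma over the 36 libraries, in a model with replicate blocks and with p-values adjusted after Benjamini-Hochberg over all 10237 genes, 0 genes (0%) were called lower and 0 (0%) higher in +IAA at an adjusted p under 0.1 and a log2 difference over 0.2. The smallest adjusted p was 1. At an unadjusted p under 0.05 there were 68 genes (0.664%), 58 of them lower and 10 higher, and the smallest unadjusted p was 0.00225. This share is under the 0.05 that p-values give where no gene differs, so this fit gave too few small p-values. Its replicate block is shared by all stages and holds no term for the mitotic pairs. With a block for each stage there were 436 such genes, and with only the mitotic libraries and the block 505. The smallest limma adjusted p was then 0.497 and 0.605, and no gene was called. Differences are given as +IAA minus −IAA on log2(TPM + 1), a scale that understates the change of genes with low values. On this scale 90% of the genes lay between −0.12 and 0.070, and the standard error of a gene's difference had a median of 0.084.

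The confidence intervals show how large a difference could have been missed. The 95% confidence interval reached 0.17 on either side of the estimate for the median gene. Its width depends on the block, as the median standard error of 0.084 became 0.051 with a block for each stage, 0.046 with only the mitotic libraries and the block, and 0.13 with no block. Of the 5937 genes that averaged 1 TPM or more over the 6 libraries, the interval excluded a halving of the −IAA level for 5890 and a doubling for 5925. Differences within 0.17 of the estimate were inside the interval of the median gene. Over all 10237 genes the counts for a halving and a doubling were 9072 and 9863. In bulk RNA, fewer cells with a transcript and less of it per cell cannot be told apart.

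**Figure D1:**
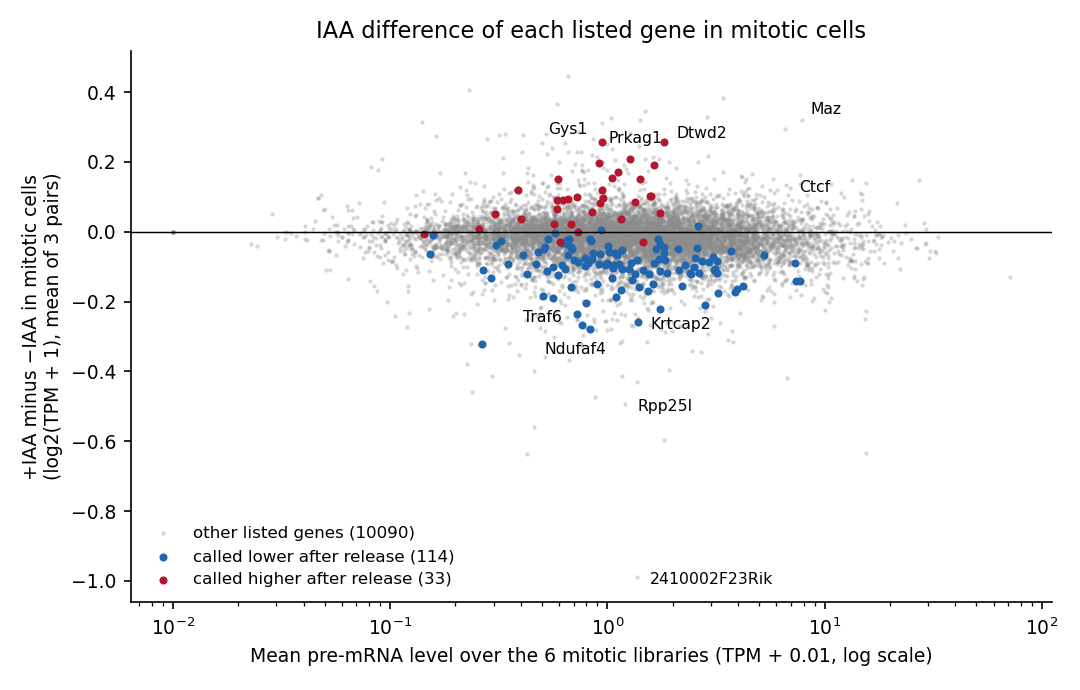
Each point is 1 of 10237 genes, with the mean level over the 6 mitotic libraries on the x axis (TPM + 0.01, log scale) and the mean difference of the 3 pairs, +IAA minus −IAA, on the y axis (log2(TPM + 1)). Blue and red points are the 114 and 33 genes called lower and higher after release, which lie mostly below and above 0, and none of all points was called in mitosis.

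Over all genes the median difference was 0.0081 in pair 1, −0.041 in pair 2 and −0.029 in pair 3, and the median of the mean differences was −0.015 (SD of the pair medians 0.026, n = 3). An exact sign-flip permutation test over the 3 pairs gave a two-sided p of 0.50, where 0.25 is the smallest it can give. The direction of this small shift turned with the scaling: the median was 0.0027 with every library scaled to the same total and 0.026 with every library divided by its step, the smallest unit of its values. Lower in all 3 pairs were 2034 genes (19.9%) and higher in all 3 were 472 (4.61%). The 3 +IAA libraries lay below the 3 −IAA libraries for 151 genes (1.48%) and above them for 40 (0.391%). Across genes, the differences of any 2 pairs were nearly unrelated, with Pearson's r of −0.13, −0.0016 and 0.057 (10237 genes, which are not independent replicates).

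Pair 1 differed from the other pairs in how the IAA difference moved with gene length. Over quartiles from the shortest to the longest genes, its median went from −0.078 through −0.031 and 0.015 to 0.10. In pair 2 the medians went from −0.017 to −0.055 and in pair 3 from −0.018 to −0.034. The median of the mean differences was −0.036 in the shortest and 0.0077 in the longest quartile. Of the 68 genes at an unadjusted p under 0.05, 50 were in the shortest quartile, that of genes up to 10060 bp, where the median standard error was also the largest (0.11 against 0.074 in the longest quartile). The part of gene length in the differences below was not tested.

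**Figure D2:**
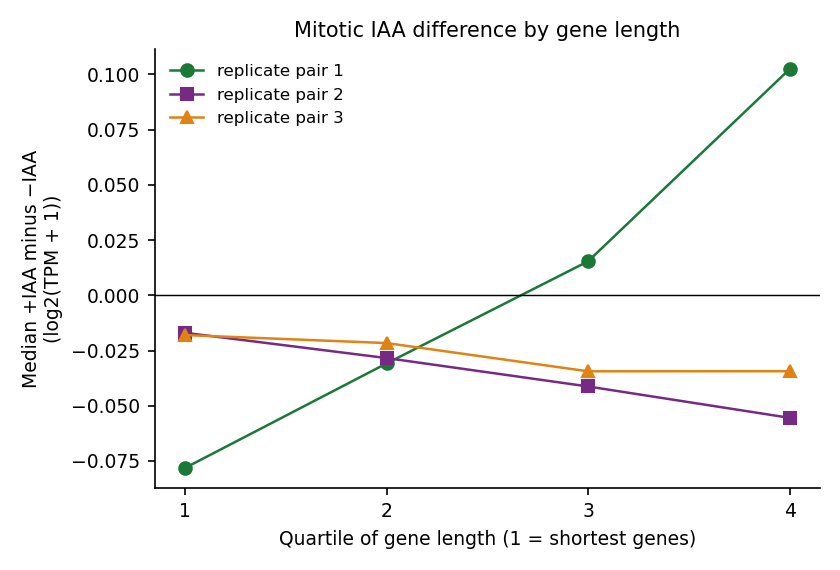
Median IAA difference of mitotic cells (y axis, log2(TPM + 1)) in quartiles of gene length (x axis, 1 the shortest) for each replicate pair. Pair 1 goes from −0.078 to 0.10, while pairs 2 and 3 end at −0.055 and −0.034.

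Ctcf itself, on chromosome 8 of GRCm38 (mm10) from 105636568 to 105682922, was at 5.74, 6.15 and 6.78 TPM without IAA and 6.41, 6.10 and 7.18 TPM with IAA in replicates 1, 2 and 3. The arms overlapped, and the difference of 0.066 (SE 0.096) was not called. It was 0.032 without replicate 1, 0.10 without replicate 2 and 0.13 with the step scaling. The other genes of the CTCF and cohesin list behaved alike: of 14 listed, 0 were called by limma in either direction and 0 had an unadjusted p under 0.05. The cohesin ring genes Smc1a, Smc3 and Rad21 differed by −0.0036, −0.068 and −0.017, and Wapl, which releases cohesin from DNA, by −0.011. The list's median of −0.015 was close to that of all genes, and it turned to 0.010 and 0.044 under the same total and the step scaling. Of the loci known for CTCF borders 7 of 75 genes were listed, which covers few protocadherin and Hox genes. Meg3, a maternally expressed noncoding RNA, was at 15.7 ± 3.09 TPM without and 16.2 ± 2.19 TPM with IAA (SD, n = 3), and Kcnq1ot1, the noncoding RNA of the imprinted Kcnq1 domain, at 4.04 ± 1.05 and 4.18 ± 0.434 TPM. Neither difference was called, and both turned below 0 without replicate 1 (−0.057 and −0.11).

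Of the genes lower in all 3 pairs, with a mean difference of over 0.2 in size on the log2 scale, 12 are named by smallest p. The first was Rpp25l, which encodes a protein related to a subunit of RNase P. Its pre-mRNA (chromosome 4, 41712033–41713534) was at 1.30, 1.42 and 1.97 TPM without IAA and 0.554, 0.809 and 1.10 TPM with IAA. Every +IAA library was below every −IAA library, and the difference was −0.49 (SE 0.144, limma adjusted p = 1). After release the difference was below 0 at 20, 40 and 90 min (−0.14, −0.23 and −0.15) and above 0 at 50, 60 and 120 min (0.26, 0.024 and 0.065), and it was 0.0050 in asynchronous cells. None of these values was called. Like all 12 genes named as lower, Rpp25l is named by its unadjusted p and not as a called gene.

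Ubxn1, a cofactor of the p97 unfoldase, had 1.37, 1.10 and 1.22 TPM without and 0.894, 0.735 and 0.878 TPM with IAA (difference −0.28, SE 0.092). The arms were apart. After release the difference was below 0 at 4 of 6 time points, from −0.28 at 60 min to 0.14 at 50 min, and it was 0.19 in asynchronous cells, with no call at any stage. Apex1, the main endonuclease of base excision repair, Rps27, a protein of the small ribosomal subunit, and Tsr3, an enzyme that modifies 18S ribosomal RNA, differed by −0.32, −0.60 and −0.28. Alg3, which builds N-glycan precursors, Tmed1, a cargo receptor of the early secretory pathway, and the small membrane protein gene Ifitm5 differed by −0.23, −0.30 and −0.64. Several of these values shrank when 1 replicate was left out. Without replicate 1 that of Rps27 was −0.30 and that of Tmed1 −0.093, and without replicate 3 that of Apex1 was −0.21 and that of Ifitm5 −0.38. The largest difference of the 12, −0.99 for 2410002F23Rik, rested on values that spread widely within an arm, from 0.317 to 3.65 TPM without and from 0 to 1.17 TPM with IAA, and was −0.59 without replicate 1. This gene overlaps small nucleolar RNA genes on its strand, so its reads may not be its own. Ifitm5 also overlaps another gene on its strand.

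Among the 12 lower genes, 3 were also called lower after release and in asynchronous cells, where 1.11% and 1.53% of all genes were. They are Ndufaf4, an assembly factor of respiratory complex I, Traf6, a ubiquitin ligase of innate immune signalling, and Krtcap2, a subunit of the oligosaccharyltransferase that attaches N-glycans. These calls and the mitotic p-values share the residual variance of the same fit, so the overlap is not independent of the choice by p. Traf6 was at 1.00, 0.781 and 0.958 TPM without and 0.724, 0.515 and 0.743 TPM with IAA. No +IAA value reached the lowest −IAA value, and the mitotic difference was −0.21 (SE 0.070, limma adjusted p = 1). The difference widened to −0.92 at 60 min and −1.23 at 90 min and was −0.76 in asynchronous cells. Ndufaf4 had 1.09, 1.03 and 0.880 TPM without and 0.830, 0.515 and 0.608 TPM with IAA in mitosis. Its arms were apart as well, and its difference was −0.28 in mitosis (SE 0.091). It was −0.34, −0.48, −0.46, −0.28, −0.55 and −0.53 at the 6 time points after release and −0.39 in asynchronous cells. Krtcap2 was at 1.74, 1.22 and 1.79 TPM without and 1.30, 0.760 and 1.44 TPM with IAA. Each +IAA library was below its own −IAA partner while the arms overlapped (difference −0.26, SE 0.098), and the difference was −0.96 in asynchronous cells.

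**Figure D3:**
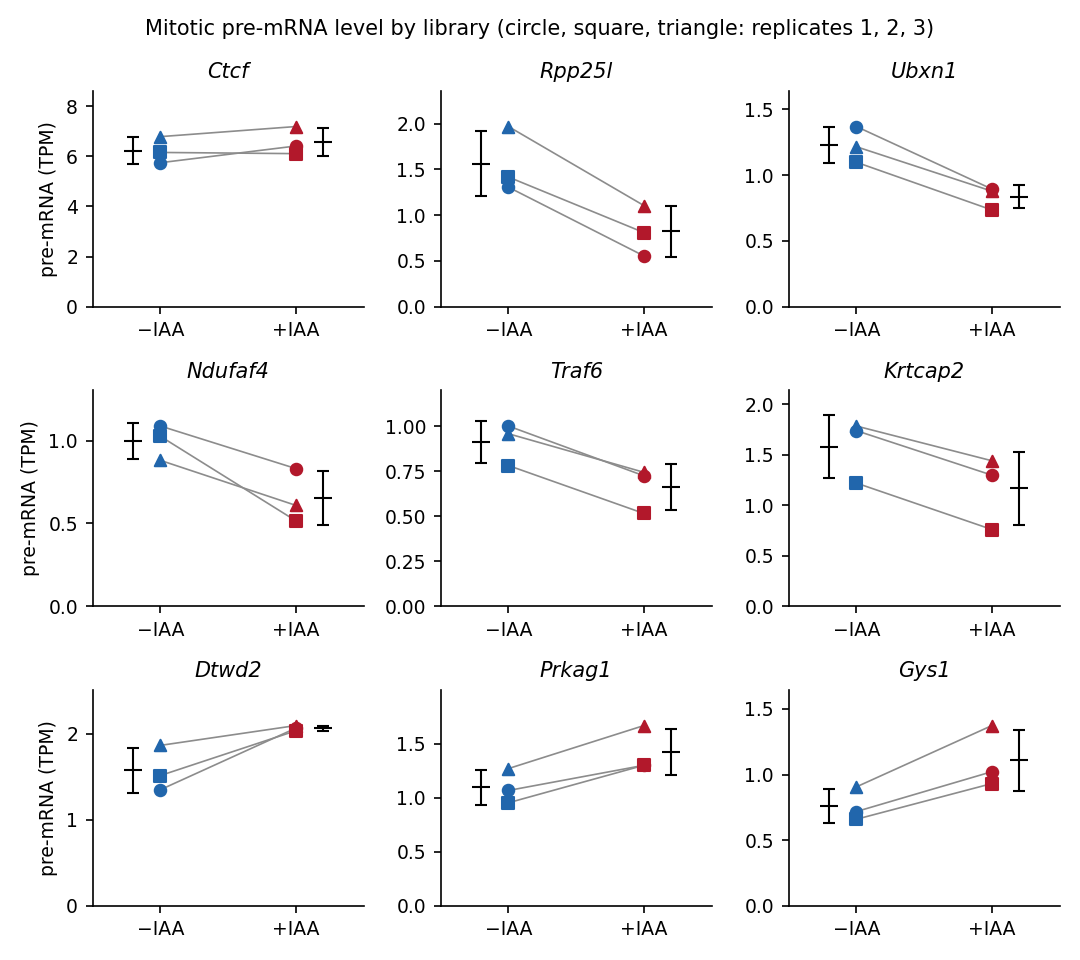
Pre-mRNA level (y axis, TPM, from 0) of 9 genes in the 6 mitotic libraries, −IAA in blue and +IAA in red, with lines joining replicate pairs and black bars for mean ± SD (n = 3). Rpp25l, Ubxn1, Ndufaf4, Traf6 and Krtcap2 are lower and Dtwd2, Prkag1 and Gys1 higher in +IAA in every pair, and Ctcf is higher in 2 pairs and lower in 1.

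Another 12 genes are named by the smallest p among those higher in all 3 pairs with a mean difference over 0.2. Their unadjusted limma p ran up to 0.098, so that 4 of them were above 0.05. Of the 12, 3 were called higher after release and in asynchronous cells, where 0.322% and 0.899% of all genes were. This overlap too is not independent of the choice by p, since both come from the same fit. Dtwd2, which modifies transfer RNA, was at 1.35, 1.51 and 1.86 TPM without and 2.07, 2.03 and 2.09 TPM with IAA (difference 0.26, SE 0.082, limma adjusted p = 1). Prkag1, the γ1 subunit of the energy sensor AMPK, was at 1.07, 0.952 and 1.27 TPM without and 1.30, 1.30 and 1.67 TPM with IAA (difference 0.21, SE 0.077). Gys1, the glycogen synthase of muscle and most other tissues, was at 0.718, 0.659 and 0.906 TPM without and 1.02, 0.931 and 1.37 TPM with IAA (difference 0.26, SE 0.096). In these 3 genes every +IAA library was above every −IAA library, and the differences were 0.72, 0.59 and 0.67 at 60 min and 0.85, 0.87 and 1.10 in asynchronous cells.

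The other 9 genes named as higher were called neither in asynchronous cells nor in 2 or more time points after release. Maz, a zinc finger factor of GC-rich promoters, had the highest level of them, with 6.90 ± 0.580 TPM without and 8.89 ± 1.08 TPM with IAA (SD, n = 3), and its arms did not overlap. Its difference of 0.32 had a 95% interval from −0.033 to 0.67, and was 0.19 without replicate 2 and 0.055 in asynchronous cells. A330009N23Rik, Trim7, Wdr38, Ovca2, Ndufa13, 9330020H09Rik, Mrpl53 and Phpt1 differed by 0.22 to 0.45, and the highest of these, that of Ovca2, was 0.24 without replicate 3. Wdr38, Ovca2, Ndufa13, Mrpl53 and Phpt1 overlap another gene on their strand. Of the 12 lower genes 11 and of the 12 higher genes 10 were shorter than the median listed gene of 22495 bp, and their median lengths were 3320.5 and 6643.5 bp. Exons filled from 5.92% (Dtwd2) to 95% (9330020H09Rik) of these 24 genes, with 57.0% in Rpp25l, 14.9% in Ndufa13 and 11.6% in Prkag1. Where this share is high, spliced and unspliced reads are harder to separate.

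Genes that responded to IAA after release were also read in the mitotic libraries. In the same fit, 114 genes (1.11%) were called lower and 33 (0.322%) higher in at least 2 of the 6 post-mitotic time points, none of whose libraries is mitotic. These counts fell to 45 and 15 in the fit with no replicate block. None of the 147 was called in mitosis. Nevertheless their mitotic differences leaned the way they later took. The study gives the purity of its mitotic cells as a lower limit, judged by DAPI staining and microscopy. A response of mitotic cells and that of remaining interphase cells cannot be told apart here. The 114 genes had a median of −0.092 in mitosis (−0.031, −0.12 and −0.11 in pairs 1 to 3), against −0.015 for all genes, and 112 of them (98.2%) were below 0, against 62.2% of all genes. The 33 genes had a median of 0.091 (0.063, 0.087 and 0.092) and 30 (90.9%) were above 0, against 37.7% of all genes. Lower in all 3 pairs were 73 of the 114 (64.0%, against 19.9% of all genes), and higher in all 3 were 21 of the 33 (63.6%, against 4.61%). After subtraction of the median of all genes, the medians in pairs 1, 2 and 3 were −0.039, −0.082 and −0.077 for the 114 genes and 0.055, 0.13 and 0.12 for the 33. With the step scaling the median of the lower genes was −0.050, beside 0.026 for all genes, and with the pseudocount of 0.1 the medians of the lower and higher genes were −0.157 and 0.173, beside −0.025 for all genes.

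The medians of these genes at later stages are given for scale. For the 114 lower genes the median difference was −0.092 in mitosis. It passed through −0.12, −0.23, −0.38, −0.42 and −0.48 at the time points from 20 to 90 min to −0.47 at 120 min, and was −0.45 in asynchronous cells. The differences at the time points chose these genes and are given as a description, while those in mitosis and asynchronous cells come from other libraries. For the 33 higher genes the medians were 0.091 in mitosis, 0.088, 0.23, 0.38, 0.37, 0.50 and 0.54 from 20 to 120 min and 0.47 in asynchronous cells. In mitosis 13 of the 114 (11.4%) and 4 of the 33 (12.1%) had an unadjusted p under 0.05, against 0.664% of all genes. The calls and these p-values share the residual variance of the same fit, so these shares are not independent of the choice. The median standard error in mitosis was 0.073 for the lower and 0.080 for the higher genes, against 0.084 for all genes. The +IAA libraries all lay below the −IAA libraries for 6 of the 114 (5.26%, against 1.48% of all genes) and above them for 9 of the 33 (27.3%, against 0.391%).

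**Figure D4:**
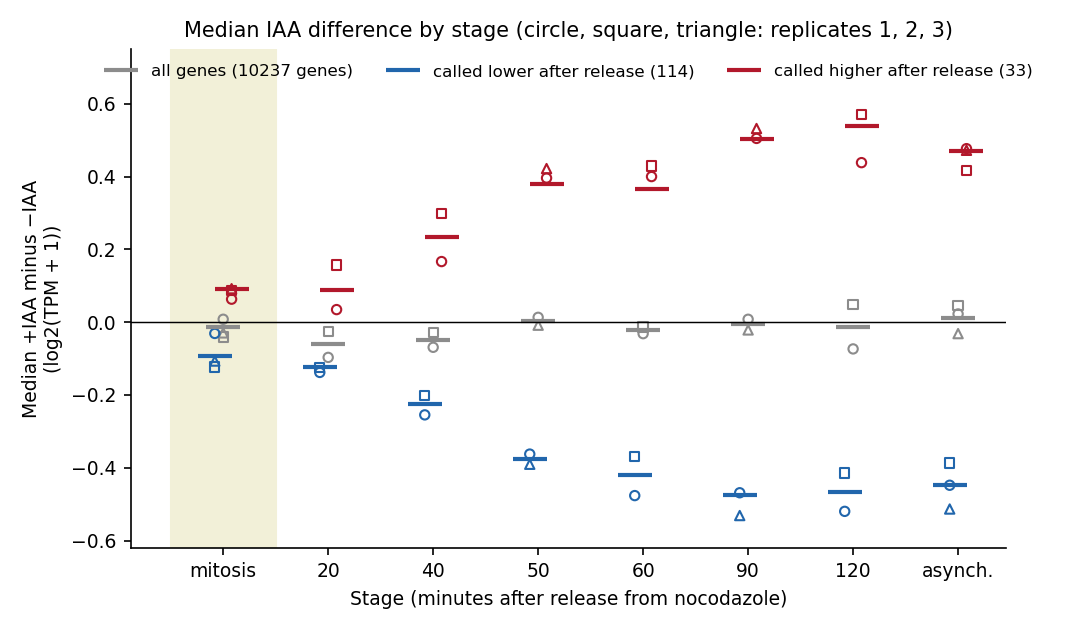
Median IAA difference (y axis, log2(TPM + 1)) of all 10237 genes (grey), the 114 genes called lower (blue) and the 33 called higher (red) after release, at each stage (x axis, minutes after release, with asynchronous cells on the right). Bars are the medians of the mean difference and symbols the medians of each replicate pair, and in the shaded mitotic stage all 3 pairs lie below 0 for the lower genes and above 0 for the higher genes.

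In asynchronous cells 157 genes (1.53%) were called lower and 92 (0.899%) higher. These lists overlap those after release: 98 of the 157 are among the 114 called lower after release and 29 of the 92 among the 33 called higher. Their mitotic medians were −0.085 (150 of 157 below 0, 95.5%, against 62.2% of all genes) and 0.060 (79 of 92 above 0, 85.9%, against 37.7%). Libraries with the same replicate number share deviations, so the calls were also made without all libraries of the replicate in whose mitotic pair the difference was then read, an alternative chosen after seeing the data. With calls from asynchronous cells, the medians of the lower genes were −0.039 in pair 1 (74 genes, 70.3% below 0), −0.12 in pair 2 (126 genes, 92.1%) and −0.096 in pair 3 (79 genes, 92.4%). Of all genes, 47.6%, 69.9% and 66.5% were below 0 in these pairs. The medians of the higher genes were 0.083, 0.070 and 0.063 (30, 55 and 41 genes), and 76.7%, 78.2% and 82.9% of them were above 0, against 52.2%, 29.8% and 33.2% of all genes. With calls after release, the lower genes had medians of −0.059, −0.13 and −0.12 (8, 77 and 68 genes). The higher genes had 0.11 in pair 2 (23 genes) and 0.10 in pair 3 (16 genes), whereas pair 1, with 3 genes left, had −0.077. Without replicate 1 each of the 6 time points kept 1 library in an arm, as did 4 of them without replicate 2 and 2 without replicate 3, so these lone libraries are assumed to vary like the other groups.

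Whether the IAA difference in mitosis itself differed from that at later stages was tested as an interaction in the same fit. Against the mean of 20 to 60 min, 7 genes (0.0684%) were called at an adjusted p under 0.1, with absolute mitotic differences of at most 0.16. Tex261, Cdkn2aipnl, Rab12, Ttc5 and Gfm1 were lower with IAA after release, and Vps37d and Mrps16 were higher. Vps37d, a subunit of the ESCRT-I sorting complex, was at 0.130, 0.220 and 0.388 TPM without and 0.255, 0.245 and 0.248 TPM with IAA in mitosis. Its arms overlapped, with a mitotic difference of 0.0090 (SE 0.072) that ran from −0.062 to 0.091 without 1 replicate, whereas the difference was 0.20, 0.81, 0.93 and 0.95 at the time points from 20 to 60 min. At 20 min and in asynchronous cells (0.068) it was not called. The interaction was −0.71 (SE 0.084, limma adjusted p = 0.000130). Gfm1, the mitochondrial translation elongation factor G1, was at 1.91, 1.39 and 2.23 TPM without and 1.79, 1.23 and 1.87 TPM with IAA. Each +IAA value was below that of its pair, by −0.11 (SE 0.064) on average, against −0.17 at 20 min and −0.76 at 60 min, which gave an interaction of 0.37 (SE 0.075, limma adjusted p = 0.0630). The 7 genes were named because this test called them. The count of 7 fell to 1 without mitotic replicate 1, 2 or 3 and to 0 with no replicate block, and rose to 38 with a block for each stage and to 20 with the same total in every library.

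Against asynchronous cells 63 genes (0.615%) were called, 47 with a mitotic difference above and 16 with one below that of asynchronous cells. The stage, the time in IAA and the arrest drugs all differ in this comparison and cannot be told apart. In all 63 the absolute difference was smaller in mitosis, where its median was 0.087, and 60 of the 63 had the sign they had in asynchronous cells. These genes were chosen by the gap between both stages while none was called in mitosis, so the smaller size was largely set by the choice. The share of matching signs over all genes is not given here. The strongest was Nle1, a ribosome assembly factor. Its level was 4.85, 3.71 and 4.89 TPM without and 4.05, 3.41 and 4.28 TPM with IAA in mitosis. The +IAA library was lower in all 3 pairs, with a mean difference of −0.16 (SE 0.10, limma adjusted p = 1) against −1.45 in asynchronous cells. Traf6, Krtcap2, Dtwd2, Prkag1 and Gys1 were also among the 63. Their mitotic difference was smaller than the asynchronous one, and this gap passed the test in the fit with the replicate block. Without mitotic replicate 1, 2 or 3 the test called 32, 42 or 39 genes, with no replicate block 6, with a block for each stage 207 and with the same total 159.

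CTCF binds a sequence whose core can be written as CCANNAGNNGGC, where N is any base, and this pattern was searched on both strands of the RefSeq promoters (GRCm38.p6) from 250 bases before to 50 bases after the start. Promoters were found for 8199 of the 10237 genes (80.1%), and 267 of these genes (3.26%) held the pattern. Among the named genes Ndufaf4 and Krtcap2 held it. Windows of 30 bases are shown for both, with the pattern in capitals, to show how near it lies to the start of genes that were lower in all 3 mitotic pairs. Those of Gfm1 and Vps37d, chosen after their values were seen, are shown because the IAA difference of these genes was smaller in mitosis than after release.
Ndufaf4, chr4:24898018-24898047, plus strand: tcctcccggCCACCAGGGGGCgacgagcgc
Krtcap2, chr3:89246358-89246387, plus strand: tcctccttgCCACAAGAGGGCgctgcaccc
Gfm1, chr3:67430022-67430051, plus strand: tcctcctgaCCAGGAGAGGGCgcgcgccac
Vps37d, chr5:135078334-135078363, plus strand: cgcgttctgCCACCAGGGGGCgccttgacc
The centres of these windows lie 50, 65, 78 and 82 bases before the RefSeq start sites of Ndufaf4, Krtcap2, Gfm1 and Vps37d. The pattern is in the gene's own orientation for the first 3 and opposite to the gene for Vps37d. In Gencode vM21 Krtcap2 starts at 89245966, so by that annotation its window lies inside the gene. A match is a description of the letters and not a measured binding site.

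Of the 114 genes called lower after release 92 had a promoter sequence, and 23 of these (25%) held the pattern, as did 6 of 29 (20.7%) of those called higher. The stricter pattern CCANNAGGGGGC was in 55 of 8199 promoters (0.671%), in 8 of 92 (8.70%) and in 5 of 29 (17.2%). In the 23 lower genes with the pattern, 18 of the 23 sites lay in the orientation of the gene, as did 1 of 4 sites in the higher genes, against 160 of 261 (61.3%) in all listed genes, where sites too near the edge of a window were left out. Across all genes the median mitotic difference was −0.027 with and −0.014 without the pattern, and −0.042 with and −0.015 without the stricter one. With the first pattern the medians were 0.00015, −0.042 and −0.039 in pairs 1, 2 and 3, and without it 0.0087, −0.041 and −0.029. Within the 114 lower genes the medians were −0.089 with and −0.095 without the pattern, and within the 33 higher genes 0.058 (6 genes) and 0.095.

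The gene lists of the ES cell state, the cell cycle and stress, chosen with earlier results of these data known, held 297 listed genes in 17 lists, of which 0 were called by limma in mitosis. The list medians ran from −0.10 to 0.051. Of the 17, 14 were below 0 with the deposited values, 11 with the same total and 4 with the step scaling, so that a common direction of the lists depends on the scaling. Of 25 pluripotency genes 0 were called, with a median of −0.017 that turned to 0.019 under the step scaling. Nanog, a core factor of ES cell identity, was at 6.78 ± 1.93 TPM without and 5.98 ± 1.54 TPM with IAA (SD, n = 3, difference −0.15, 95% interval −0.45 to 0.14).

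Of 36 regulators of mitosis and the anaphase-promoting complex 0 were called, with a median of −0.047 that turned to 0.011 under the step scaling. Ccnb2, a mitotic cyclin, was at 2.00 ± 0.412 and 1.79 ± 0.369 TPM (difference −0.099, and −0.057 without replicate 1), and Top2a, the topoisomerase that untangles chromosomes, at 9.18 ± 2.30 and 8.20 ± 1.72 TPM without and with IAA. Among 34 genes of G1/S and replication 0 were called, and Cdk4, the kinase partner of D cyclins, was the only gene of the 297 with an unadjusted p under 0.05 (2.44 ± 0.131 TPM without and 1.86 ± 0.259 TPM with IAA, SD, n = 3, difference −0.27, limma adjusted p = 1). Without replicate 1 it was −0.17, and in asynchronous cells −0.058.

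The median of 16 p53 targets, none of which was called, was −0.10, with −0.12, −0.0015 and −0.088 in pairs 1, 2 and 3. Their median stayed below 0 under the same total (−0.081) and the step scaling (−0.042). Ccng1, cyclin G1, was at 10.7 ± 0.795 and 9.39 ± 0.889 TPM, and Phlda3, an inhibitor of Akt signalling, at 4.23 ± 0.576 and 3.28 ± 0.311 TPM without and with IAA. Without replicate 1 their differences of −0.17 and −0.29 were −0.059 and −0.17. Targets of the integrated stress response (14 genes), heat shock genes (11) and targets of the aryl hydrocarbon receptor (6), which binds indole compounds, held 0 called genes each, with medians of −0.058, −0.074 and −0.028. The 19 immediate early genes were at −0.0093 with pairs of both signs, and the 31 genes of general transcription, which include Maz, at −0.017. The other lists, for ribosome biogenesis, splicing, condensin, primed and two-cell-like states and differentiation, had medians from −0.050 to 0.0034 and 0 called genes. With the pseudocount of 0.1 the median of the 5 two-cell-like genes was −0.19 and that of the 8 differentiation markers turned to −0.0085, while that of the immediate early genes was −0.050 and that of the stress response targets −0.097. With the step scaling the medians of the integrated stress response and heat shock lists were −0.015 and −0.0094, and those of the receptor targets, the immediate early genes and general transcription turned to 0.014, 0.0045 and 0.037.

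**Figure D5:**
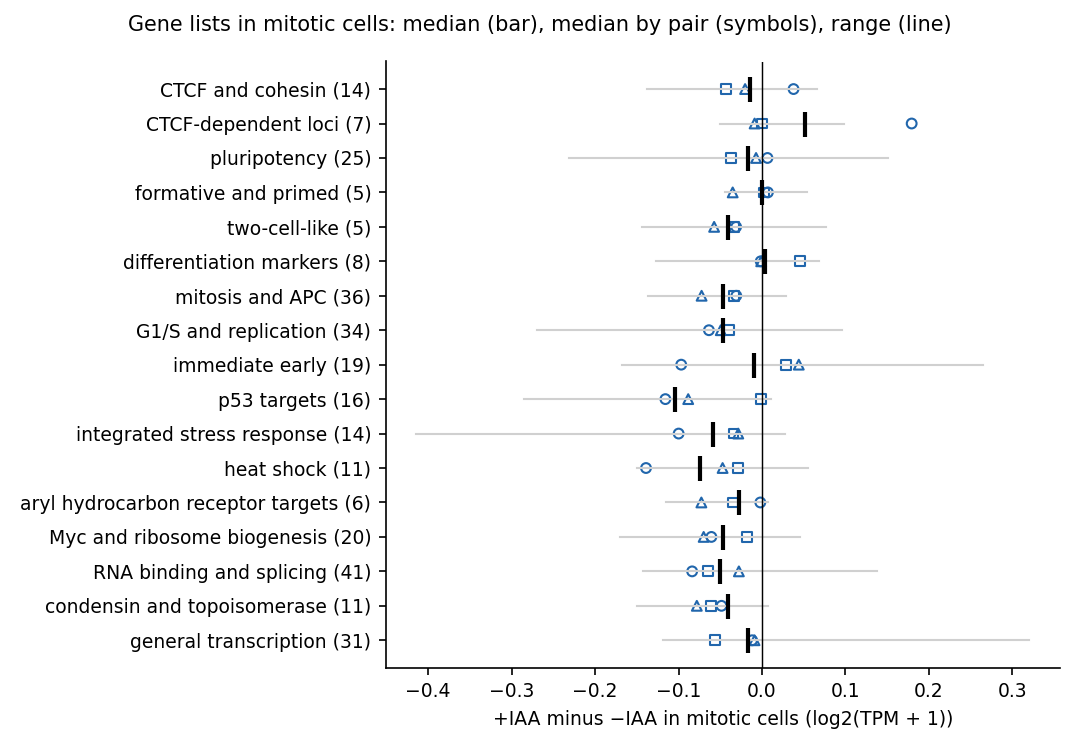
IAA difference in mitotic cells (x axis, log2(TPM + 1)) for 17 gene lists, with the number of listed genes in brackets. Black bars are the medians of the members, open symbols the medians in pairs 1 (circle), 2 (square) and 3 (triangle) and grey lines the range of the members. The medians lie between −0.10 and 0.051, and no member was called.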

How the data were processed

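RNA was measured in mitotic CTCF-AID cells with and without IAA. According to the study's methods, ribo-depleted, stranded, paired-end libraries were aligned with STAR to mm10 and quantified with RSEM on Gencode vM12, to which a pre-mRNA isoform had been added for each gene; versions are not given in the sources used here. The authors deposited TPM of that isoform, for genes whose mean passed 0.5 in asynchronous cells or in 2 or more samples after release, so no filter on mitotic values applied. Each library's values are multiples of a step of 0.0213–0.0259 TPM in mitosis, and no reads could be recovered. Columns not assigned to a sample numbered 0.

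Differences were tested with limma 3.58.1 (lmFit, eBayes with trend) in R 4.3.3 on log2(TPM + 1) over 16 groups of stage and arm, with the replicate as a block, since the count model of the study cannot be run on TPM. Same-numbered libraries deviated together from their group means in all 18 pairs (r 0.51 to 0.88), so the numbers pair them. At stages with 2 libraries in an arm both pairs have the same r by construction, so the 18 values are not separate. In the mitotic pairs r was 0.51 to 0.81. The fit was tested on simulated data, where it missed many of the smallest changes. The simulated noise was drawn separately for each library, unlike the deviations that both arms of a pair share in the data. The simulation therefore does not give the power of the real comparison. Named genes are Ctcf, list genes that were called, and 12 lower and 12 higher genes. Where not called, the lower and higher genes were filled by smallest p. This was done among genes of 1 sign in all 3 pairs with a mean difference over 0.2 in size. Members, lists and tests were chosen with earlier results of these data known. Other steps used matplotlib 3.10.9, scipy 1.17.1, pandas 2.3.3 and numpy 2.4.6 in Python 3.11.15, and positions are from Gencode vM21 (10225 of 10237 symbols). Alternatives were the blocks, scalings, pseudocounts, filters and replicates described in the closing section.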

Additional observations from a re-analysis of the deposited data

Results flagged for a closer look

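The IAA difference in mitosis was tested against that at 20 to 60 min and against that in asynchronous cells, and 7 and 63 genes differed at an adjusted p under 0.1 (limma). On the log2 scale, the difference in mitosis minus that at 20 to 60 min was −0.71 for Vps37d, −0.53 for Mrps16, a protein of the mitochondrial ribosome, 0.59 for Tex261, 0.42 for Cdkn2aipnl, 0.47 for the small GTPase gene Rab12, 0.37 for Ttc5 and 0.37 for Gfm1. The difference in mitosis minus that in asynchronous cells was 0.55 for Traf6, 0.70 for Krtcap2, −0.60 for Dtwd2, −0.66 for Prkag1 and −0.84 for Gys1. The 3 genes with the smallest p in that test were Nle1 at 1.30, Ttc5 at 0.78 and Dusp12, a dual-specificity phosphatase, at 0.81. In each of these genes the absolute IAA difference was smaller in mitosis than at the stage it was compared with. The choice by this test largely set that, since no gene was called in mitosis.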

How the results depend on the processing

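In mitosis 0 genes were called lower and 0 higher in every alternative: no replicate block, a replicate block for each stage, only the 6 mitotic libraries with or without the block, a pseudocount of 0.1, genes of at least 1 TPM, the same total, division by the step, without any 1 replicate, and an adjusted p under 0.05 with no fold minimum. The count at an unadjusted p under 0.05 ran from 23 with no replicate block to 505 with only the mitotic libraries and the block, and the smallest adjusted p from 0.424 to 1. The median over all genes was 0.0027 with the same total and 0.026 with the step, and −0.035 to −0.0055 without 1 replicate. The interaction with release gave 0 genes with no replicate block, 38 with a block for each stage, 20 with the same total and 1 without any 1 replicate. The interaction with asynchronous cells gave 6 with no replicate block, 207 with a block for each stage, 159 with the same total, 32 with genes of at least 1 TPM, and 32 to 42 without 1 replicate. The median mitotic difference of the genes called lower after release was −0.157 with the pseudocount of 0.1 and −0.050 with the step, where that of all genes was 0.026. That of the genes called higher was 0.173 with that pseudocount, 0.121 with no replicate block, 0.116 with the same total and 0.123 with the step. The replicate block changed no call in mitosis. Without 1 replicate, differences near 0 turned for Meg3 (−0.057 to 0.11), Kcnq1ot1 (−0.11 to 0.17) and Vps37d (−0.062 to 0.091, with −0.0013 without replicate 2). The median over all genes and medians of gene lists also changed direction, and the cause of these shifts was not tested. The step scaling of the medians of genes called after release and, for the interactions, the block for each stage, the step, the minimum of 1 TPM and the left-out replicates, with those of genes outside the naming rule, were chosen after seeing the data. Without read counts the counting error of single values is unknown.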

Other observations

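Among the 114 genes called lower after release, 13 had an unadjusted p under 0.05 in mitosis. Chosen after their values were seen, Alg5, a glycosyltransferase of N-glycan precursors, was at 1.17, 1.15 and 1.48 TPM without and 1.09, 0.735 and 1.26 TPM with IAA. Rabggta, a subunit of the enzyme that prenylates Rab proteins, was at 1.07, 0.610 and 0.880 TPM without and 0.639, 0.343 and 0.743 TPM with IAA. Both were lower in every pair, with mean differences of −0.17 and −0.23, with arms that overlapped, and that of Alg5 was −0.095 without replicate 2. Mrps2, a protein of the mitochondrial ribosome, had the lowest mitotic difference of the 114, −0.32, at 0.609, 0.464 and 0.129 TPM without and 0.170, 0.0490 and 0.113 TPM with IAA. Of the 33 genes called higher, Mmgt2 had 0.718, 0.732 and 0.880 TPM without and 0.915, 1.03 and 1.17 TPM with IAA, with arms that did not overlap and a difference of 0.20 (SE 0.083). By quartile of mean mitotic level the median difference was −0.0094, −0.012, −0.017 and −0.022 from the lowest to the highest.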
